A study of Homo sapiens with 8 samples.

Results

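DU145 and PC3 were both set apart in methylation from LNCaP-FGC and RWPE-1, in the same direction, at 597 CpG sites. These were 2.17% of the 27541 sites with a value in all 4 prostate cell lines, and 27578 sites were on the array. The methylation level is given as a beta value, a fraction that is 0 at an unmethylated and 1 at a fully methylated site. A site was taken when both DU145 and PC3 lay at least 0.3 in beta above both LNCaP-FGC and RWPE-1, or at least 0.3 below both. At 530 sites (1.92% of those with 4 values) DU145 and PC3 were the higher lines, and at 67 sites (0.243%) they were the lower lines. The sites were chosen by these same betas, so their levels are described here and not tested.

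DU145 and PC3 are androgen-independent lines that were derived from prostate cancer metastases. They were compared with LNCaP-FGC, a metastatic prostate carcinoma line that responds to androgen, and RWPE-1, a line of normal prostate epithelium immortalized with papillomavirus genes that the study used as its control. No treatment is named for any line, and each line was hybridised to 1 methylation array and 1 expression array, giving 8 samples. The difference between lines therefore has no replicate check and carries no p-value, and the lines are 4 different genetic backgrounds, not repeats of a condition. A bulk beta is an average over all DNA copies in the culture, so a value in the middle of the scale cannot tell a mixture of cells from partial methylation within each cell.

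DNA methylation adds a methyl group to cytosine, mostly where it is followed by guanine. CpG-rich promoters are unmethylated in most normal cells, and dense methylation of such a promoter goes with a silent gene. Prostate carcinomas are known both for gained methylation at promoters and for lost methylation elsewhere in the genome. The array weights promoter CpG sites, but the tables used here pair no site and no expression probe with a gene, a position or a sequence. The sites are therefore described by their levels, with no gene names, and the identity of the lines was not checked against marker genes. Neighbouring sites of 1 promoter may be counted more than once among the 597.

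The arrays differed in overall level in the same order as the pairs. The mean beta over all sites was 0.340 in DU145 and 0.302 in PC3, against 0.288 in LNCaP-FGC and 0.258 in RWPE-1. The DU145 array also had the widest scale, with a median beta of 0.925 over 1570 sites above 0.8 on all 4 arrays, against 0.889 to 0.904 on the other arrays. At 10916 sites below 0.1 on all arrays its median was 0.0151, against 0.0253 to 0.0348 on the others. Bringing these low and high sites to a common level by a linear rescaling gave 505 sites higher in DU145 and PC3 and 68 lower. Quantile normalization, which gives every array the same distribution of betas and so no net difference in level, gave 244 higher and 152 lower. The share of higher sites was thus 88.8% in the deposited betas, 88.1% after linear rescaling and 61.6% with a common distribution.

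At the 530 higher sites DU145 and PC3 ranged from intermediate to full methylation, and LNCaP-FGC and RWPE-1 were below 0.2 at most sites. In DU145 they ran from 0.325 to 0.988 with a median of 0.826. In PC3 they ran from 0.316 to 0.988 with a median of 0.749. The pair of low lines had medians of 0.102 in LNCaP-FGC (0.00916 to 0.658) and 0.123 in RWPE-1 (0.0122 to 0.659). Over all sites the medians were 0.0761 in DU145 and 0.104 in PC3, against 0.0772 in LNCaP-FGC and 0.0570 in RWPE-1, so the low lines at these sites lay above the middle of their own arrays. A beta above 0.8 was found at 55.3% of the 530 sites in DU145 and at 40.8% in PC3. A beta below 0.2 was found at 69.4% in LNCaP-FGC and at 63.2% in RWPE-1.

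**Figure D1:**
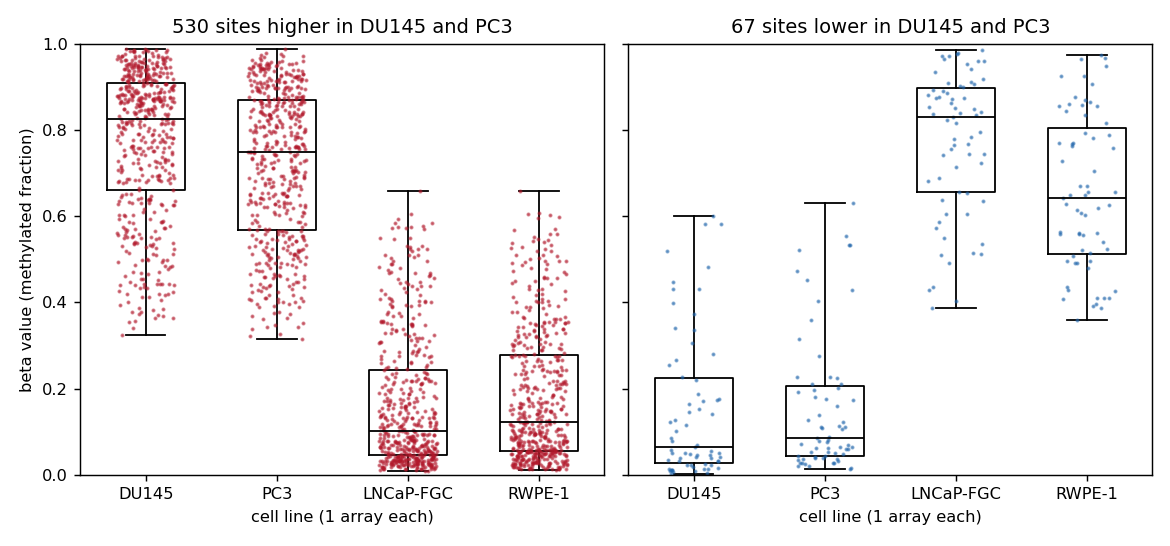
Beta values (vertical axis, 0 to 1) of the 530 higher sites (left panel) and the 67 lower sites (right panel) in each cell line. Each point is 1 site on 1 array, the box spans the quartiles with the median as a line, and the whiskers reach the lowest and highest site. Medians at the higher sites are 0.826 in DU145 and 0.749 in PC3, against 0.102 in LNCaP-FGC and 0.123 in RWPE-1.

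The largest gap between the pairs was at site cg02624705, with betas of 0.987 in DU145 and 0.957 in PC3, against 0.00964 in LNCaP-FGC and 0.0252 in RWPE-1. Site cg12448933 followed with 0.962 in DU145 and 0.905 in PC3, against 0.0202 in LNCaP-FGC and 0.0441 in RWPE-1. Both sites were close to full methylation in DU145 and PC3 and close to none in the other lines. The gap, meaning the smallest of the differences between a line of one pair and a line of the other, was 0.932 and 0.861 at these sites. Gaps of at least 0.7 were found at 26 higher sites, where the betas ran from 0.832 to 0.988 in DU145 and from 0.748 to 0.988 in PC3. At the same 26 sites they ran from 0.00964 to 0.146 in LNCaP-FGC and from 0.0139 to 0.202 in RWPE-1.

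Such complete switches were a small part of the group. Only 25 of the 530 sites (4.72%) had both DU145 and PC3 above 0.8 with both LNCaP-FGC and RWPE-1 below 0.2. The most frequent pattern, at 144 sites (27.2%), was an intermediate beta of 0.2 to 0.8 in both DU145 and PC3 over a beta below 0.2 in both other lines. Medians at those 144 sites were 0.570 in DU145 and 0.547 in PC3, against 0.0569 in LNCaP-FGC and 0.0691 in RWPE-1. A further 69 sites (13.0%) were above 0.8 in both DU145 and PC3 and intermediate in both other lines, with medians of 0.920 and 0.900 against 0.420 in LNCaP-FGC and 0.404 in RWPE-1. In all, 271 of the 530 sites (51.1%) were below 0.2 in both LNCaP-FGC and RWPE-1, and 98 (18.5%) were intermediate in both. Set against the whole array, the higher sites were 1.81% of the 15011 sites that were below 0.2 in LNCaP-FGC and RWPE-1 and 3.09% of the 3168 sites that were intermediate in those lines.

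The 67 lower sites were little methylated in DU145 and PC3, above 0.8 at most sites in LNCaP-FGC and mainly intermediate in RWPE-1. DU145 ran from 0.00148 to 0.601 with a median of 0.0634, and PC3 from 0.0134 to 0.632 with a median of 0.0843. LNCaP-FGC ran from 0.388 to 0.985 with a median of 0.830, and RWPE-1 from 0.358 to 0.975 with a median of 0.641. A beta below 0.2 was found at 73.1% of these sites in DU145 and at the same share in PC3, whereas a beta above 0.8 was found at 53.7% in LNCaP-FGC and 25.4% in RWPE-1. Only 1 site was below 0.2 in both DU145 and PC3 and above 0.8 in both LNCaP-FGC and RWPE-1. That site, cg17200465, had betas of 0.0563 in DU145 and 0.0868 in PC3, against 0.881 in LNCaP-FGC and 0.906 in RWPE-1, and it also had the largest gap among the lower sites, 0.794. Site cg07077459 had the next largest gap, 0.750, with 0.00827 in DU145 and 0.0195 in PC3, against 0.817 in LNCaP-FGC and 0.769 in RWPE-1.

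Most of the other lower sites fell into a pair of patterns. At 20 sites both DU145 and PC3 were below 0.2 and both other lines were intermediate, with medians of 0.0454 in DU145 and 0.0571 in PC3, against 0.605 in LNCaP-FGC and 0.548 in RWPE-1. At 18 sites DU145 and PC3 were below 0.2, LNCaP-FGC was above 0.8 and RWPE-1 was intermediate, with medians of 0.0361 and 0.0562 in DU145 and PC3, against 0.902 in LNCaP-FGC and 0.4998 in RWPE-1. Of the 1958 sites above 0.8 in both LNCaP-FGC and RWPE-1, 0.664% were among the lower sites.

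Larger gaps were rarer in both directions. Among the 530 higher sites the gap had a median of 0.413, with 239 sites between 0.3 and 0.4, 140 between 0.4 and 0.5 and 151 (28.5%) at 0.5 or more. Among the 67 lower sites the median was 0.392, with 36 sites between 0.3 and 0.4, 16 between 0.4 and 0.5 and 15 (22.4%) at 0.5 or more. The higher site just inside the rule's limit of 0.3 had 0.563 in DU145 and 0.517 in PC3, against 0.217 in LNCaP-FGC and 0.143 in RWPE-1. The higher site just outside that limit had 0.665 and 0.746 in DU145 and PC3, against 0.121 in LNCaP-FGC and 0.365 in RWPE-1. The lower site just inside had 0.0853 in DU145 and 0.210 in PC3, against 0.512 in LNCaP-FGC and 0.564 in RWPE-1, and the one just outside had 0.0725 and 0.269 in DU145 and PC3, against 0.892 in LNCaP-FGC and 0.567 in RWPE-1. A further 373 sites were higher and 55 lower in DU145 and PC3 by a gap of 0.2 to 0.3.

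**Figure D2:**
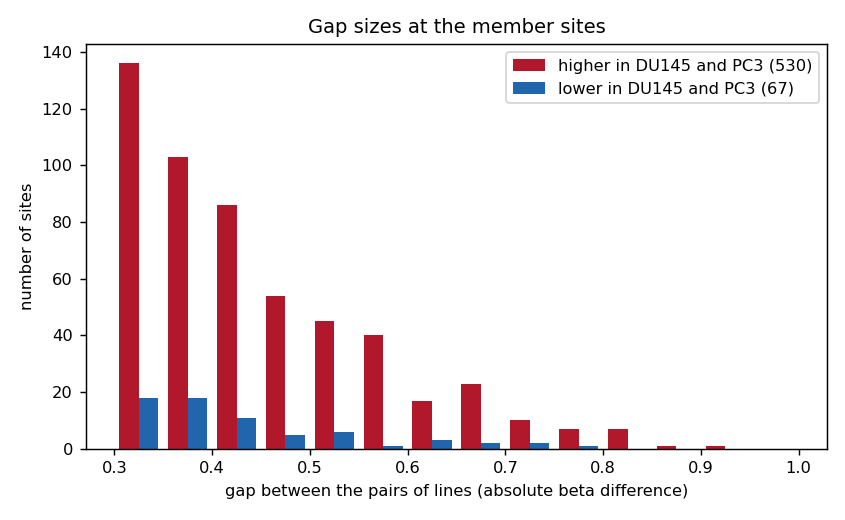
Number of sites (vertical axis) by the size of the gap between the pairs of lines (horizontal axis, absolute beta difference in steps of 0.05), for the higher and the lower sites. Small gaps are the most frequent, with 239 higher and 36 lower sites between 0.3 and 0.4, and 151 higher and 15 lower sites have a gap of 0.5 or more.

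Within each pair the lines also differed from each other. At the 530 higher sites DU145 was above PC3 at 330 sites (62.3%), with a median difference of 0.0301 (quartiles -0.0375 and 0.156). Over all sites DU145 was above PC3 at 38.7%, with a median difference of -0.0106 but a mean difference of 0.0377. At the 10916 sites below 0.1 on all arrays the median beta was 0.0151 in DU145 and 0.0348 in PC3. DU145 and PC3 lay within 0.1 of each other at 258 of the higher sites (48.7%) and at least 0.3 apart at 83 (15.7%), against 66.9% and 16.3% of all sites on the array. The rule limits how far apart they can lie at the higher sites. At 65 of those 83 sites DU145 was the higher line, with medians of 0.896 in DU145 and 0.493 in PC3 over 0.0489 in LNCaP-FGC and 0.0522 in RWPE-1. At the other 18 PC3 was higher, with medians of 0.471 in DU145 and 0.877 in PC3 over 0.0723 in LNCaP-FGC and 0.0597 in RWPE-1. Over the whole array DU145 was likewise the higher line at 3239 of the 4487 sites at least 0.3 apart, and PC3 at 1248. The less methylated line ran from 0.321 to 0.671 in PC3 at the 65 sites and from 0.341 to 0.571 in DU145 at the 18. This intermediate level was fixed by the choice of sites. That line had to lie at least 0.3 above the other pair and at least 0.3 below its partner.

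LNCaP-FGC and RWPE-1 lay within 0.1 of each other at 324 of the 530 sites (61.1%) and at least 0.3 apart at 39 (7.36%), against 66.3% and 19.03% of all sites. The rule holds both lines at least 0.3 below DU145 and PC3 here, which limits how far apart they can lie. All sites also include the 10916 below 0.1 on all arrays. The line of each pair nearer to the other pair, which sets the gap, was PC3 at 330 sites and DU145 at 200, and RWPE-1 at 301 and LNCaP-FGC at 229. At the 67 lower sites DU145 and PC3 lay within 0.1 at 51 (76.1%) and at least 0.3 apart at 6, whereas LNCaP-FGC and RWPE-1 lay within 0.1 at 35 (52.2%) and at least 0.3 apart at 14 (20.9%), a share near that over all sites. RWPE-1 was the nearer line at 47 of the 67 lower sites and LNCaP-FGC at 20. Pearson's r between DU145 and PC3 was 0.407 over the higher sites and 0.556 over the lower sites, and between LNCaP-FGC and RWPE-1 it was 0.490 and 0.310. Over all sites r was 0.787 between DU145 and PC3 and 0.676 between LNCaP-FGC and RWPE-1. The shares and the r values describe sites of the same 4 arrays. At the higher and lower sites the choice of sites has narrowed their range.

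**Figure D3:**
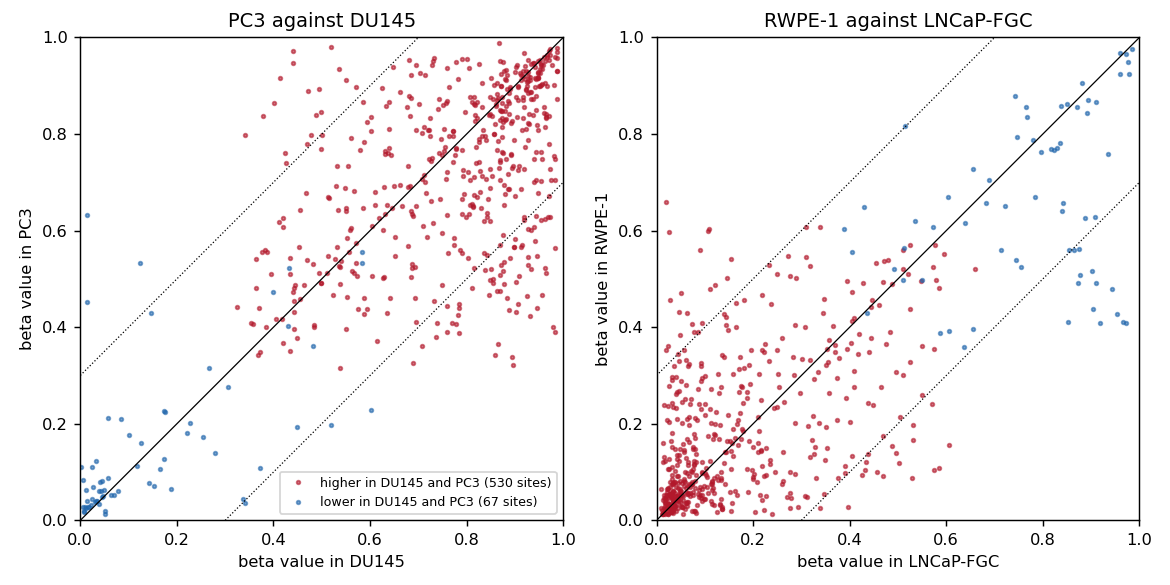
Beta values of the 597 sites in PC3 against DU145 (left panel) and in RWPE-1 against LNCaP-FGC (right panel), 1 point per site on axes of 0 to 1. The solid line marks equal betas and the dotted lines a difference of 0.3. DU145 and PC3 lie at least 0.3 apart at 83 higher and 6 lower sites, and LNCaP-FGC and RWPE-1 at 39 higher and 14 lower sites.

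The rule was also counted with a line left out, over the 27541 sites with 4 values in the deposited betas. DU145 and PC3 were both at least 0.3 above LNCaP-FGC at 1637 sites and both at least 0.3 above RWPE-1 at 1641 sites, and the 530 higher sites made up 32.4% and 32.3% of these. DU145 was at least 0.3 above both LNCaP-FGC and RWPE-1 at 2089 sites, of which PC3 shared 25.4%. PC3 was at least 0.3 above both at 1099 sites, of which DU145 shared 48.2%. In the other direction DU145 and PC3 were both at least 0.3 below LNCaP-FGC at 1213 sites, and 5.52% of these were also at least 0.3 below RWPE-1. They were both at least 0.3 below RWPE-1 at 200 sites, and 33.5% of these were also at least 0.3 below LNCaP-FGC. DU145 was at least 0.3 below both LNCaP-FGC and RWPE-1 at 271 sites, of which PC3 shared 24.7%. PC3 was at least 0.3 below both at 413 sites, of which DU145 shared 16.2%. Every share in a direction has the same 530 or 67 sites as its numerator. The shares therefore differ only because the totals differ, and they do not measure the part of a line.

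Fewer sites could fall than rise, since most sites are unmethylated in LNCaP-FGC and RWPE-1. Of 19993 sites at which both of these lines left room for a rise of 0.3, DU145 and PC3 were higher at 2.65%. Of 6687 sites with room for a fall of 0.3, they were lower at 1.00%. With quantile-normalized betas this order also turned round, to 1.27% of 19248 sites with room for a rise and 2.01% of 7566 with room for a fall.

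The 4 lines can be split into pairs in 3 ways, and the split of DU145 and PC3 from LNCaP-FGC and RWPE-1 was not the most frequent. LNCaP-FGC and PC3 were set apart from DU145 and RWPE-1 at 962 sites, 418 higher (1.52%) and 544 lower (1.98%). DU145 and LNCaP-FGC were set apart from PC3 and RWPE-1 at 470 sites, 430 higher (1.56%) and 40 lower (0.145%). In all 3 splits of the deposited betas the pair that held DU145 was the higher one at more sites than it was the lower one. With quantile-normalized betas the split of LNCaP-FGC and PC3 gave 492 higher and 479 lower sites, so there the pair that held DU145 was no longer the more often higher one. The split of DU145 and LNCaP-FGC then gave 216 and 148. Among all sites, DU145 and PC3 were both above LNCaP-FGC and RWPE-1 by any amount at 5301 sites (19.2%) and both below at 2010 (7.30%). With quantile-normalized betas this order turned round, to 3720 sites above (13.5%) and 5148 below (18.7%). In the deposited betas LNCaP-FGC and PC3 were above by any amount at 7903 sites and below at 4035. For DU145 and LNCaP-FGC these counts were 2886 and 5406. Over both directions the split of DU145 and PC3 thus held the fewest of the 3. With quantile-normalized betas the other splits gave 4223 and 6190, and 3261 and 4988, and the split of DU145 and LNCaP-FGC held the fewest. With 3 splits of 4 arrays the counts cannot be tested, and the part of array scale in their order was not tested beyond the rescalings given.

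**Figure D4:**
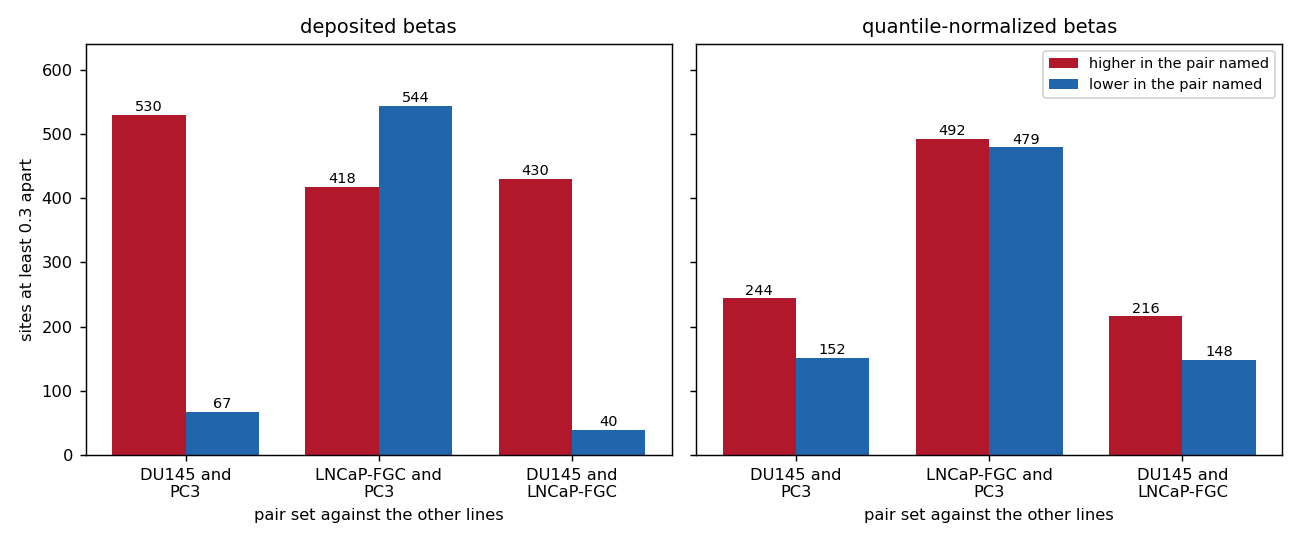
Number of sites (vertical axis, from 0) at which 1 pair of lines lay at least 0.3 in beta above or below the other pair, for the 3 ways to pair 4 lines, in the deposited betas (left panel) and with the arrays forced to a common distribution (right panel). DU145 and PC3 had 530 higher and 67 lower sites in the deposited betas, and 244 and 152 with a common distribution.

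Expression was not used to choose the sites and gives a separate view of how the lines pair, although probes could not be joined to sites. Of 33622 probes brighter than the median probe on at least 1 array, 410 (1.22%) were at least 2-fold higher in both DU145 and PC3 than in both LNCaP-FGC and RWPE-1, and 406 (1.21%) were at least 2-fold lower. For LNCaP-FGC and PC3 against DU145 and RWPE-1 the counts were 201 higher (0.598%) and 250 lower (0.744%). For DU145 and LNCaP-FGC against PC3 and RWPE-1 they were 253 higher (0.752%) and 230 lower (0.684%). In expression the split of DU145 and PC3 thus held the most probes of the 3, while in methylation the split of LNCaP-FGC and PC3 held the most sites. The first order held without background correction, at 1.5-fold and in the authors' deposited log2 table, and the second held with quantile-normalized betas. Leaving out the probe filter changed none of the 2-fold counts, so it is no separate check of the order. These intensities were quantile normalized, which gives every array the same distribution.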

How the data were processed

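Methylation was taken from the authors' deposited beta values, fractions from 0 to 1 measured on the Illumina HumanMethylation27 beadchip from bisulfite-converted DNA, per the labels' protocols; the software named there is BeadStudio, and the normalization is not given in the sources used here. These betas were not changed, and 37 sites lacking a beta in any line were left out. Expression was taken from the authors' deposited probe intensities (BeadStudio version 3.1.3, per the labels' series text), which were background-corrected with limma 3.58.1 (normexp, offset 50) and quantile normalized. The authors' deposited log2 table served as an alternative; each of its columns correlated best with the raw intensities of its own line (r of 0.9993 or more).

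No test was made, because each line had 1 array per assay and precision is limited by that number. Neither signal intensities nor detection p-values for the methylation arrays were used here. The planned counts of genes with changed expression could not be made, since no table used here names a gene for a site or probe, so 2 sites in each direction, those with the largest gap, are named by identifier. The sites and rules were chosen with earlier results of these data known. The counting rule was run on simulated betas with planted sites well past the rule and little noise. That checks the code only, not the scale or error of the arrays. Python 3.11.15 was used for counts.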

Additional observations from a re-analysis of the deposited data

Results flagged for a closer look

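At some of the sites LNCaP-FGC and the DU145 and PC3 pair moved in opposite directions from RWPE-1, each by at least 0.3 in beta. This was not tested, since no line has a repeat array. Among the 530 higher sites there were 21 of this kind (3.96%), where the median beta of DU145 was 0.918, that of PC3 0.926 and that of LNCaP-FGC 0.0725, against 0.457 in RWPE-1. Over all sites LNCaP-FGC was at least 0.3 below RWPE-1 at 7.35%. The choice of the higher sites limits the levels of these lines. At 271 of the 530 sites both were below 0.2, where such a fall is impossible. The smaller share among the higher sites was thus partly set in advance. Among the 67 lower sites there were 13 (19.4%), where DU145 had a median of 0.0339, PC3 of 0.0605 and LNCaP-FGC of 0.903, against 0.480 in RWPE-1. Over all sites LNCaP-FGC was at least 0.3 above RWPE-1 at 11.7%. The choice of the lower sites also limits the levels of both lines, so these shares are not alike. RWPE-1 was intermediate at both sets of sites. The choice of these sites requires that, since other lines lay at least 0.3 above and below it. At 18 of the 530 higher sites (3.40%) LNCaP-FGC went the same way as DU145 and PC3, at least 0.3 above RWPE-1. At 1 of the 67 lower sites (1.49%) it also went the same way, at least 0.3 below RWPE-1.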

How the results depend on the processing

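The count of higher sites was 530, and it was 244 with quantile-normalized betas, 845 with a difference of at least 2 in log2(beta / (1 - beta)), 903 with a beta difference of 0.2 and 291 with one of 0.4. The count of lower sites was 67, and it was 152 with quantile-normalized betas, 122 with a beta difference of 0.2 and 31 with one of 0.4; the log2(beta / (1 - beta)) rule gave 93. Of the 530 higher sites 243 (45.8%) remained with quantile-normalized betas and 505 (95.3%) after linear rescaling, an alternative added after seeing the data; all 67 lower sites remained under both. DU145 and PC3 were the higher lines at more sites under each of these alternatives, but with quantile-normalized betas the order turned round for gaps of any size and relative to the number of sites that could rise or fall. The expression counts and their alternatives were also added after seeing the data: 410 higher and 406 lower probes became 1023 and 999 at 1.5-fold, and 298 and 295 with no background correction, 302 and 290 in the authors' deposited log2 table. Alternatives for genes with changed expression were not run, since sites and probes carry no gene names. No paired analysis was possible because each line had 1 array per assay. The error of a repeat array is unknown.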
